A study of Mus musculus with 40 samples.

Results

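The 26S proteasome, the protease complex that degrades ubiquitin-tagged proteins, was followed through the mRNAs of 31 of its constitutive subunits in mouse liver. The members were chosen by gene symbol from the subunits of the 20S core and the 19S cap, with earlier results of these data known. Each was represented by its brightest probe set annotated to that symbol. All 31 were measured, among 9695 genes measured in all. They comprised 7 alpha subunits, 7 beta subunits, 6 cap ATPases and 11 cap proteins without ATPase activity.

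Nrf2-null and wild-type (Wt) male C57BL/6J mice, 12 weeks old, were compared, with 4 mice in each of 10 groups and 1 array per mouse. In each genotype, mice received by gavage 300 μmol/kg D3T, a dithiolethione, or CDDO-Im, a synthetic triterpenoid, at 3, 10 or 30 μmol/kg, or the vehicle, a mixture of Cremophor-EL, DMSO and phosphate-buffered saline. Dosing was on alternate days, with 3 treatments within 5 days, and the liver was collected 24 hours later. The Nrf2-null mice carry the deletion in every tissue and were bred from heterozygotes, so the liver values include whatever the loss does elsewhere in the animal.

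The core is a barrel whose outer rings are made of alpha subunits, which gate the entrance, and whose inner rings are made of beta subunits, among which Psmb5, Psmb6 and Psmb7 carry the catalytic sites. The cap recognizes ubiquitin chains, unfolds the substrate with a ring of ATPases and removes the chains. Nrf2 itself is held low by Keap1, which delivers it to the proteasome. Nrf2 activators have been reported to raise subunit mRNAs in mouse liver and cells, and Nfe2l1, a relative of Nrf2, drives the same genes when proteasome activity is blocked.

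Values are log2 intensities, so a difference of 1 is a doubling, and a change was called when limma's adjusted p was under 0.05 over all 9695 genes. Levels of different probe sets are not comparable. Because liver is a mixed tissue, fewer cells of a type and less RNA per cell cannot be told apart. The genotype labels were borne out by Nfe2l2, the gene of Nrf2, which lay between 2.72 and 3.10 in all Nrf2-null mice and between 10.77 and 11.75 in all Wt mice. The Nrf2 target Nqo1 was higher by 2.54 ± 0.32 (SE) with D3T in Wt liver (adjusted p = 1.4e-05) and by 4.09 ± 0.32 with 30 μmol/kg CDDO-Im (adjusted p = 7.65e-11). The hepatocyte gene Alb lay between 16.02 and 16.46 in all mice. Among the 6 hepatocyte genes listed, 2 were called lower and 0 higher when Wt mice dosed with 30 μmol/kg were set against vehicle. Of all genes 20.8% were called lower there. Against vehicle, 0 of the 6 were called in Wt mice dosed with D3T or 10 μmol/kg. Between 30 and 10 μmol/kg, 1 was lower and 0 were higher. Their part in the changes of the subunits was not tested. The T cell genes Cd3e and Cd3d did not reach the expression minimum of log2 4. Of the 6 lymphocyte genes listed only Ptprc, which other leukocytes also express, did, at 7.58 to 9.60.

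Arrays differed in overall level, with medians of the kept probe sets between 7.50 and 7.86. The median over all genes was −0.16 in 30 μmol/kg CDDO-Im against vehicle in Wt liver and −0.08 at 10 μmol/kg, so changes at these doses are also given after centring each array on its median. Of the Kupffer cell genes 1 of 6, the scavenger receptor Marco, was called higher at 10 and 30 μmol/kg. Marco lay at 5.53 to 6.75 with 30 μmol/kg, against 2.27 to 3.25 with vehicle. Its part in the changes of the subunits was not tested. The animal numbers in the labels of the 16 mice given D3T or 30 μmol/kg CDDO-Im are all lower than those of the other 24 mice. Treatment and range of animal numbers therefore cannot be told apart wherever these treatments are set against vehicle or against 3 or 10 μmol/kg CDDO-Im, dose series included.

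**Figure D1:**
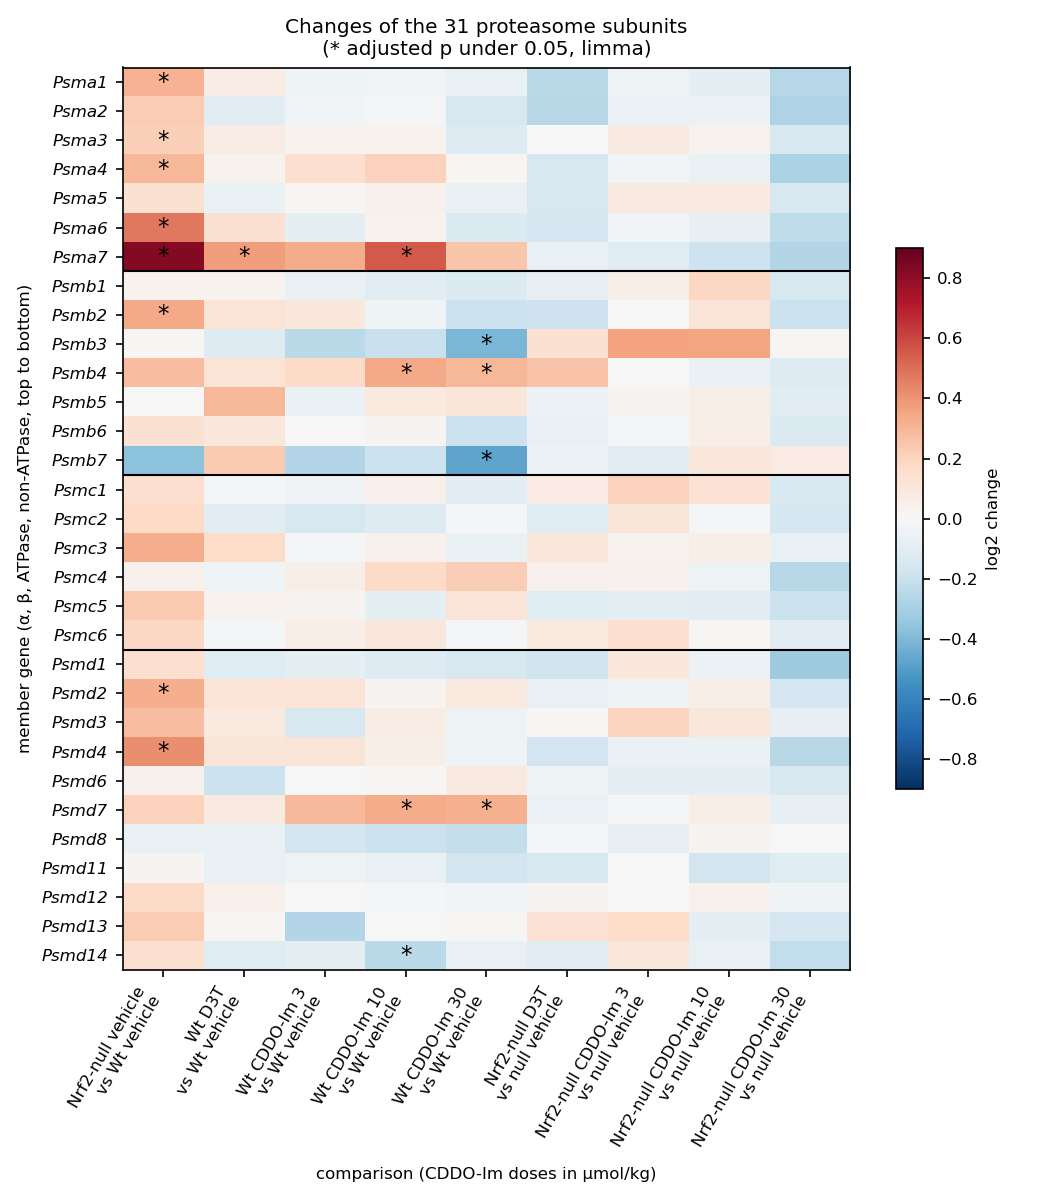
Log2 change of each of the 31 subunits (rows) in 9 comparisons (columns, CDDO-Im doses in μmol/kg), with an asterisk where the adjusted p was under 0.05. Most cells are pale, the column of Nrf2-null against Wt vehicle holds 8 asterisks, and the Nrf2-null treatment columns hold 0.

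With vehicle alone, 8 of 31 subunits were higher in Nrf2-null than in Wt liver and 0 were lower, where 5.85% of all genes were called higher and 4.97% lower. The change was positive for 28 of the 31, with a median of 0.19 against 0.01 over all genes. In 11 of the 31, every Nrf2-null mouse was above every Wt mouse, which held for 6.71% of all genes. No member had every Nrf2-null mouse below every Wt mouse, which held for 5.9% of all genes.

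The alpha ring carried most of these calls, 5 of 7. Psma7 was the largest. It measured 12.23, 12.06, 12.32 and 12.22 in Nrf2-null vehicle mice, against 11.54, 11.18, 11.28 and 11.52 in Wt vehicle mice. The groups did not overlap, and the change was 0.83 ± 0.11 (SE, adjusted p = 7.3e-06), the only one of the 31 whose 95% interval (0.60 to 1.06) lay wholly above 1.5-fold. Psma6 followed, with 13.33, 13.40, 13.53 and 13.40 in Nrf2-null vehicle mice, against 12.90, 12.85, 13.00 and 13.03 in Wt vehicle mice. These groups were also apart, by 0.47 ± 0.08 (adjusted p = 0.00010).

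Psma1, Psma3 and Psma4 were higher by 0.31, 0.22 and 0.30 (adjusted p = 0.014 each). The call of Psma1 rests on its bright probe set, since its 3 other kept ones, which averaged 5.15, 5.68 and 6.24, changed by −0.04 ± 0.17, −0.01 ± 0.22 and −0.12 ± 0.17, and the mean of its probe sets was not called (adjusted p = 0.90). The 1 other kept probe set of Psma3 had the same sign but was not called. Of 18 alternatives of processing or omissions of 1 mouse, 3 lost the Psma3 call, with limma's adjusted p up to 0.67. Psma4 was tight in Wt vehicle mice, at 12.57 to 12.60, while Nrf2-null vehicle mice spread over 12.66 to 13.13. Among the beta subunits only Psmb2 was called, by 0.34 ± 0.09 (adjusted p = 0.018), and none of the catalytic genes was. For Psmb5 the 95% interval of the difference was −0.20 to 0.20, and Psmb7 had the lowest change, −0.37 ± 0.16 (adjusted p = 0.12), resting on an Nrf2-null group that ran from 9.05 to 9.83.

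In the cap, 0 of 6 ATPases were called by limma, although all 6 changes were positive. Of these, 4 had an unadjusted p under 0.05, as did 2458 of all 9695 genes. Of the other cap proteins, 2 of 11 were called. Psmd4, a ubiquitin receptor, measured 11.92, 11.81, 11.94 and 12.00 in Nrf2-null vehicle mice, against 11.45, 11.66, 11.54 and 11.34 in Wt vehicle mice. The groups stood apart, by 0.42 ± 0.11 (adjusted p = 0.015). Psmd2, a scaffold of the cap's base, was higher by 0.33 ± 0.09 (adjusted p = 0.016). After centring, 3 of the 8 remained called (Psma6, Psma7 and Psmd4), where 4.29% of all genes were called higher and 8.97% lower, and the members' median was 0.12. Leaving out Nrf2-null replicate 3 left 5 called, where 6.4% of all genes were called higher, since Psma1, Psma4 and Psmb2 were lost. That vehicle group had the largest median SD over all genes of the 10 groups, 0.22, and 0.13 over the members. Its replicate 3 was the lowest in 3 of 3 measured endothelial genes, 4 of 6 hepatocyte genes and 0 of 6 Kupffer cell genes. The part of these cells in its subunit levels was not tested.

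Averaged over the 31 subunits, each Nrf2-null vehicle mouse lay between 11.97 and 12.08, above each Wt vehicle mouse, at 11.83 to 11.90. The same average lay between 12.02 and 12.11 in Nrf2-null mice given 3 μmol/kg CDDO-Im and between 12.00 and 12.14 at 10 μmol/kg, while all 20 Wt mice lay between 11.77 and 11.98. The Nrf2-null mice lay lower at 30 μmol/kg, at 11.87 to 11.92.

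**Figure D2:**
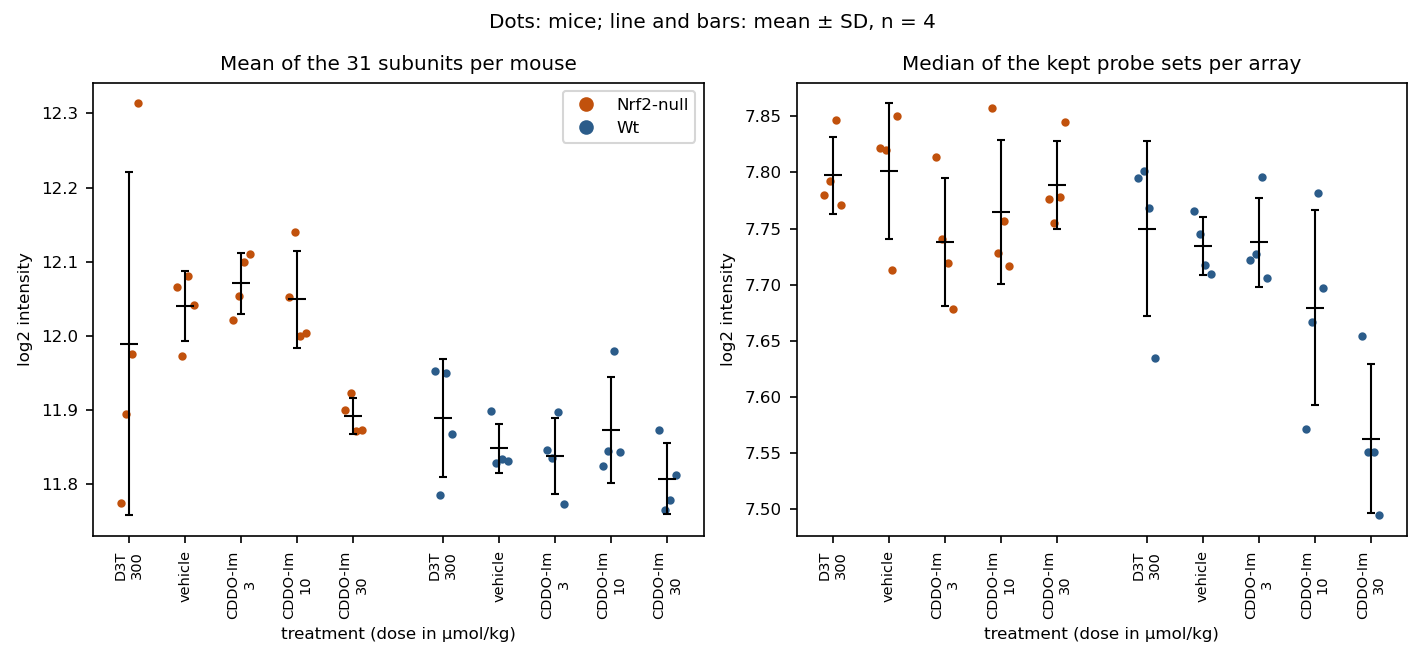
Mean log2 intensity of the 31 subunits in every mouse (left) and median of the kept probe sets on every array (right), by genotype and treatment (doses in μmol/kg), with mean ± SD of 4 mice. Nrf2-null vehicle mice sit at 11.97 to 12.08 against 11.83 to 11.90 in Wt vehicle mice, the Nrf2-null D3T mice spread most, and the array medians are lowest in Wt mice given the highest CDDO-Im dose.

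With D3T in Wt liver, Psma7 was called higher and 0 of the other 30 were called, where 2.64% of all genes were called higher and 1.59% lower. Psma7 measured 11.79, 11.72, 11.73 and 11.80 in D3T mice, against 11.54, 11.18, 11.28 and 11.52 in vehicle mice. The groups did not overlap, and the change of 0.38 ± 0.11 was at the threshold (adjusted p = 0.0496). It was lost without either of 2 vehicle mice or any of the 4 D3T mice, and after centring (adjusted p = 0.077), where 2.57% of all genes were called higher and 1.79% lower. In 2 members all D3T mice were above all vehicle mice and in 1 (Psmc2) all were below, where 8.17% and 5.95% of all genes were so. The 95% interval of 30 of 31 subunits lay within 1.5-fold in either direction, where 71% of all genes had such an interval. The lowest change was −0.19 ± 0.11, for Psmd6.

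Psmb5, the chymotrypsin-like catalytic subunit, came next. It measured 12.66, 12.63, 12.70 and 12.86 in D3T mice, against 12.50, 12.43, 12.41 and 12.31 in vehicle mice. The groups did not overlap, but the change of 0.30 ± 0.10 did not pass over all genes (adjusted p = 0.079). Psmb6, the caspase-like subunit, changed by 0.10 ± 0.08 (adjusted p = 0.56) and Psmb7, the trypsin-like subunit, by 0.23 ± 0.16 (adjusted p = 0.45), with overlapping groups in both.

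The stretch before the RefSeq start used here is shown for Psmb5 and Psmb6, which hold a core of the antioxidant response element to which Nrf2 binds. It is also shown for Psma7, which moved most and holds none there. The core searched was TGACNNNGC on both strands, in the 250 bases before the start in RefSeq, and capitals mark it.
Psmb5, GRCm38.p6 chr14:54617996-54618245, minus strand: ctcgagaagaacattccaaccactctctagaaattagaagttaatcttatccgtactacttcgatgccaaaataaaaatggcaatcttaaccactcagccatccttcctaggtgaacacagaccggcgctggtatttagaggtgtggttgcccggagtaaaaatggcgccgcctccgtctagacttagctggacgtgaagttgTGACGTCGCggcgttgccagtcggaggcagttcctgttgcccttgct
Psmb6, GRCm38.p6 chr11:70525107-70525356, plus strand: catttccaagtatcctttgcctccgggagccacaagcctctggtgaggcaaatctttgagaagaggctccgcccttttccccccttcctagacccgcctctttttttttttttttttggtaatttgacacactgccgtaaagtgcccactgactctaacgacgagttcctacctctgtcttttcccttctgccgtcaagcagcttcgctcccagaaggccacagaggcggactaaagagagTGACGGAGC
Psma7, GRCm38.p6 chr2:180042465-180042714, minus strand: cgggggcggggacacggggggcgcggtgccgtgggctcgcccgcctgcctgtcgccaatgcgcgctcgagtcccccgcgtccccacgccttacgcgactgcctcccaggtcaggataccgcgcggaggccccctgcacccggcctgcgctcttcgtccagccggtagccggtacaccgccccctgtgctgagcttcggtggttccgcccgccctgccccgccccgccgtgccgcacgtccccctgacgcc

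RefSeq promoters were matched for 25 of the 31 members, with 27 starts, and the remaining 6 were Psmb1, Psmb2, Psmb7, Psmc3, Psmd3 and Psmd7. The core was found in 4 of the 27, beside 10.2% of all 32851 promoters of that length. In Psmb5 it lay 47 to 39 bases before the start and in Psmb6 it lay in the last 9 before the start used. The Psmb6 stretch ends at position 70525356, but RefSeq also gives a gene start at 70525324. By that earlier start the Psmb6 match lies inside the gene. The other matches were in Psmc6, an ATPase, 227 to 219 bases before the start, and in Psmd12, a scaffold of the lid, 247 to 239 bases before it, both on the opposite strand. With D3T in Wt liver Psmc6 changed by −0.01 ± 0.07 (adjusted p = 0.97) and Psmd12 by 0.04 ± 0.09 (adjusted p = 0.85). Among the 4 only Psmb5 had all D3T mice above all vehicle mice, as 8.17% of all genes did, and its change was not called. Whether the core goes with a response was not tested. A letter match is not a bound site, and these arrays do not measure binding. The CCAAT box, on either strand, stood in 10 of the 27 and in 33.8% of all promoters, with Psma7 and Psmb3 among the 10.

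With CDDO-Im in Wt liver, 4 subunits were called at each of the higher doses. At 3 μmol/kg limma called 0 of 31 in either direction, where 0.227% of all genes were called higher and 0.248% lower. An unadjusted p under 0.05 was reached by 3 members and by 1019 of all 9695 genes. The changes there ran from −0.27 ± 0.16 for Psmd13 to 0.33 ± 0.11 for Psma7. In 3 members all treated mice were above all vehicle mice and in 1 all were below, where 3.4% and 4.56% of all genes were so. With 10 μmol/kg 3 were higher and 1 was lower, where 5.06% of all genes were called higher and 12.4% lower, and the members' median was 0.03 against −0.08 over all genes. Here 5 members had all treated mice above and 2 all below, where 7.42% and 15.5% of all genes did. With 30 μmol/kg 2 were higher and 2 were lower, where 2.81% were called higher and 20.8% lower, and the members' median was −0.06 against −0.16. Here 3 had all treated mice above and 6 all below, where 4.21% and 24.1% of all genes did.

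Psma7 had the largest change at 10 μmol/kg. It measured 11.89, 11.93, 12.04 and 11.88 at that dose, against 11.54, 11.18, 11.28 and 11.52 with vehicle. The groups did not overlap, and the change was 0.56 ± 0.11 (adjusted p = 0.0011). Values at 30 μmol/kg of 11.87, 11.53, 11.48 and 11.64 overlapped those of vehicle mice, and the change of 0.25 ± 0.11 did not pass (adjusted p = 0.11). Across vehicle, 3, 10 and 30 μmol/kg the group means were 11.38, 11.72, 11.94 and 11.63.

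Psmb4, a non-catalytic beta subunit, measured 13.34, 13.46, 13.32 and 13.55 at 10 μmol/kg, against 13.14, 12.88, 12.99 and 13.32 with vehicle. All treated mice were higher, and the change was 0.34 ± 0.10 (adjusted p = 0.017). With 30 μmol/kg it was 0.30 ± 0.10 (adjusted p = 0.029). Psmd7, a scaffold of the cap's lid, measured 10.21, 10.02, 10.08 and 10.04 at 30 μmol/kg, against 9.78, 9.80, 9.72 and 9.76 with vehicle. No value overlapped, and the change was 0.32 ± 0.11 at 30 μmol/kg (adjusted p = 0.035) and 0.33 ± 0.11 at 10 μmol/kg (adjusted p = 0.038). At 3 μmol/kg Psmd7 changed by 0.29 ± 0.11 with all treated mice higher, but did not pass (adjusted p = 0.34). Among the 8 omissions of 1 mouse each, the Psmd7 call was lost in 6 at 10 μmol/kg and in 7 at 30 μmol/kg, and the Psmb4 call in 3 at each dose, Wt vehicle replicates 2 and 3 being common to both doses.

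The subunits called lower were not the same at 10 and 30 μmol/kg. This is a difference in calls, since between these doses themselves only Psmb6 was called, as given below. Psmb3, called at 30 μmol/kg only, averaged 12.80 with vehicle, 12.60 at 10 μmol/kg and 12.38 at 30 μmol/kg. At 10 μmol/kg the one called lower was Psmd14, the deubiquitinase of the lid, with 11.26, 11.12, 11.35 and 11.18, against 11.47, 11.42, 11.55 and 11.43 with vehicle. The groups did not overlap, and the change was −0.24 ± 0.07 (adjusted p = 0.019). With 30 μmol/kg it changed by −0.07 (adjusted p = 0.53). There Psmb3, a non-catalytic beta subunit, measured 12.37, 12.40, 12.34 and 12.42, against 12.78, 12.90, 12.80 and 12.71 with vehicle. Its treated mice were close together and all lower, by 0.41 on the log2 scale (change −0.41 ± 0.10, adjusted p = 0.0029). Psmb7 measured 9.31, 9.40, 9.36 and 9.75 at 30 μmol/kg, against 10.03, 9.92, 9.99 and 9.79 with vehicle. The highest treated mouse nearly reached the lowest vehicle mouse, and the change was −0.48 ± 0.16 (adjusted p = 0.024).

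Of the other catalytic genes at 30 μmol/kg, Psmb6 measured 11.84, 11.74, 11.74 and 11.87, against 12.13, 11.93, 11.94 and 11.95 with vehicle. All treated mice were lower, but the change of −0.19 ± 0.08 did not pass (adjusted p = 0.075). Psmb5 changed by 0.11 ± 0.10 (adjusted p = 0.45), with overlapping groups. Against vehicle at this dose, the 3 catalytic genes thus had 1 called change, in Psmb7, whose call was lost in 5 of 8 omissions of 1 mouse.

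The lower calls were those lost on centring. After centring, Psmb3 changed by −0.24 (adjusted p = 0.16) and Psmb7 by −0.30 (adjusted p = 0.20) at 30 μmol/kg, and Psmd14 by −0.19 (adjusted p = 0.13) at 10 μmol/kg, so that 0 of 31 were called lower at either dose by limma, where 9.09% of all genes were called lower at 10 and 5.61% at 30 μmol/kg. Psmb4 and Psmd7 stayed called at both doses, and Psma7 was called at both, with 0.42 at 30 μmol/kg (adjusted p = 0.021). Psma4 was also called at 10 μmol/kg, at 0.26 (adjusted p = 0.048). The counts after centring were 4 higher at 10 μmol/kg and 3 at 30 μmol/kg, where 7.1% and 6.57% of all genes were called higher, and the members' median at 30 μmol/kg was 0.12 against 0.01.

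**Figure D3:**
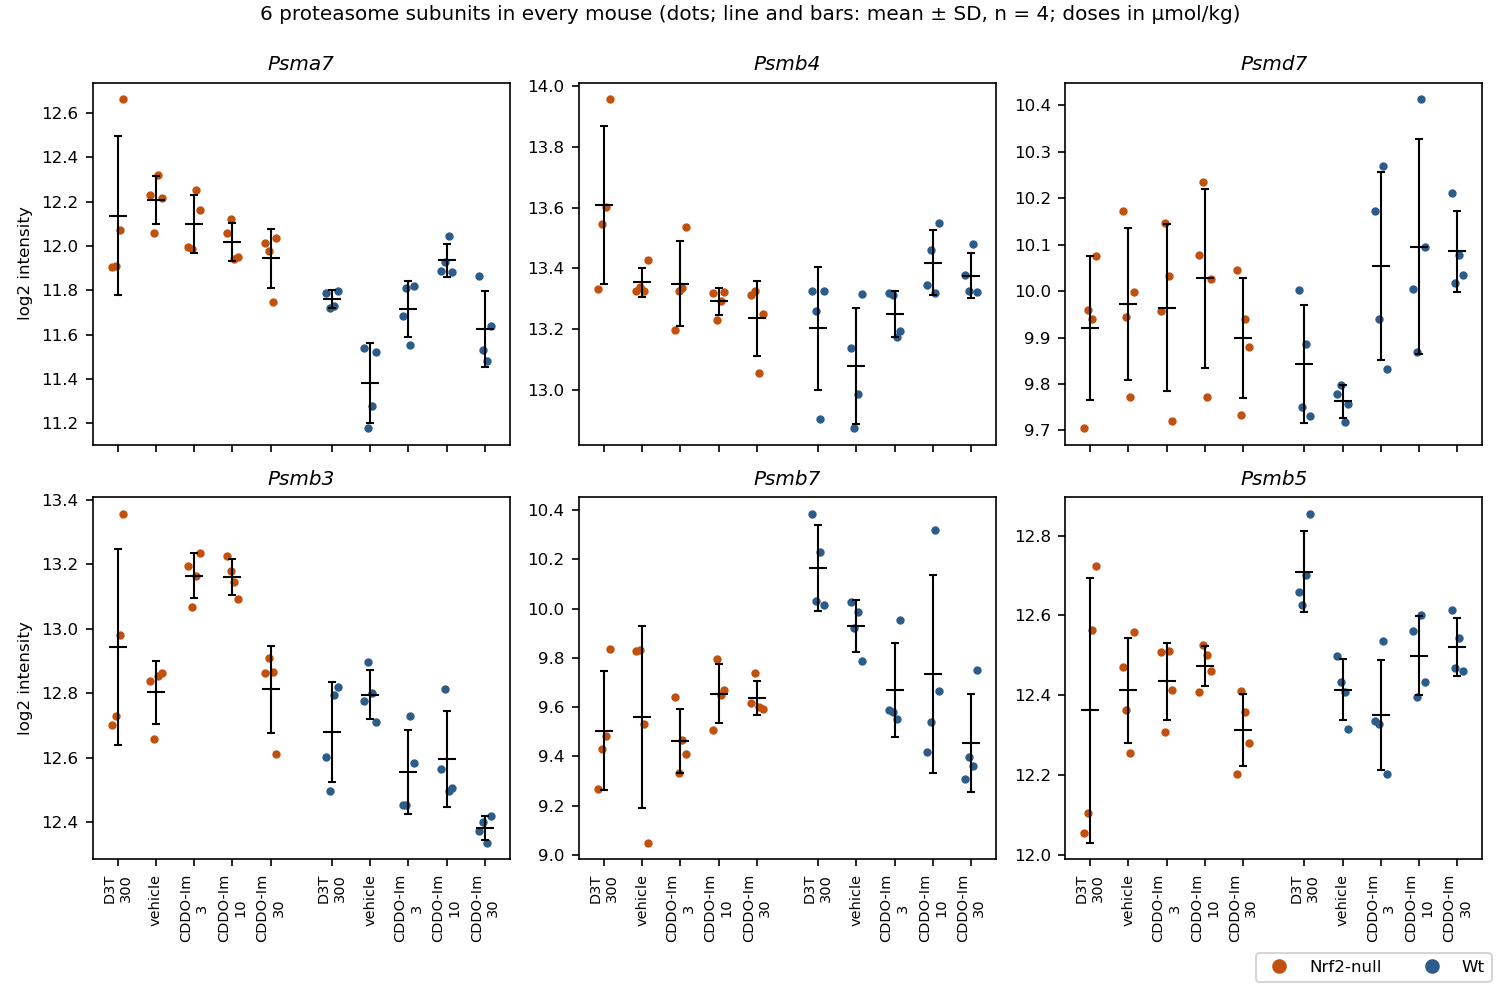
Log2 intensity of 6 subunits in every mouse, by genotype and treatment (doses in μmol/kg), with mean ± SD of 4 mice. The group mean of Psma7 is lowest in Wt vehicle mice (11.38) and highest in Nrf2-null vehicle mice (12.21). Its values in Wt mice at 10 μmol/kg CDDO-Im (11.88 to 12.04) overlap those of treated Nrf2-null mice. Psmb3 is lower in Wt mice at 30 μmol/kg CDDO-Im (12.34 to 12.42) than in any other group, and the Nrf2-null D3T mice are widely spread.

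None of the ATPases or other cap proteins apart from Psmd7 passed at 30 μmol/kg. Psmc4 measured 12.81, 12.85, 12.86 and 13.07, against 12.71, 12.53, 12.68 and 12.76 with vehicle. All treated mice were higher, by 0.22 ± 0.14, which did not pass (adjusted p = 0.26). Psmc5 changed by 0.12 ± 0.11 (adjusted p = 0.49) and Psmc2 by −0.01 ± 0.08 (adjusted p = 0.95), with overlapping groups. Psma3 ran from 13.41 to 13.65 with CDDO-Im, against 13.58 to 13.65 with vehicle (−0.12 ± 0.06, adjusted p = 0.15), and Psma4 from 12.56 to 12.66, against 12.57 to 12.60 (0.02 ± 0.08, adjusted p = 0.89). Psmd11, a lid protein, measured 12.90, 12.75, 12.78 and 12.88, against 13.07, 12.99, 12.90 and 13.00 with vehicle. Its treated mice were all lower, by a change of −0.17 ± 0.08 that did not pass (adjusted p = 0.12). Psmd13 changed by 0.01 ± 0.16 (95% interval −0.32 to 0.34).

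In Wt liver the intervals bound how far each subunit could have moved. They lay within 1.5-fold for 30 of 31 subunits at 3 and at 10 μmol/kg CDDO-Im, where 76% and 63% of all genes did so, and for 29 at 30 μmol/kg, where 59.2% did so. The exceptions were Psmd13 at 3 μmol/kg, Psma7 at 10 μmol/kg and Psmb3 and Psmb7 at 30 μmol/kg. For Nrf2-null against Wt vehicle 27 of 31 lay within that bound, where 66% of all genes did.

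**Figure D4:**
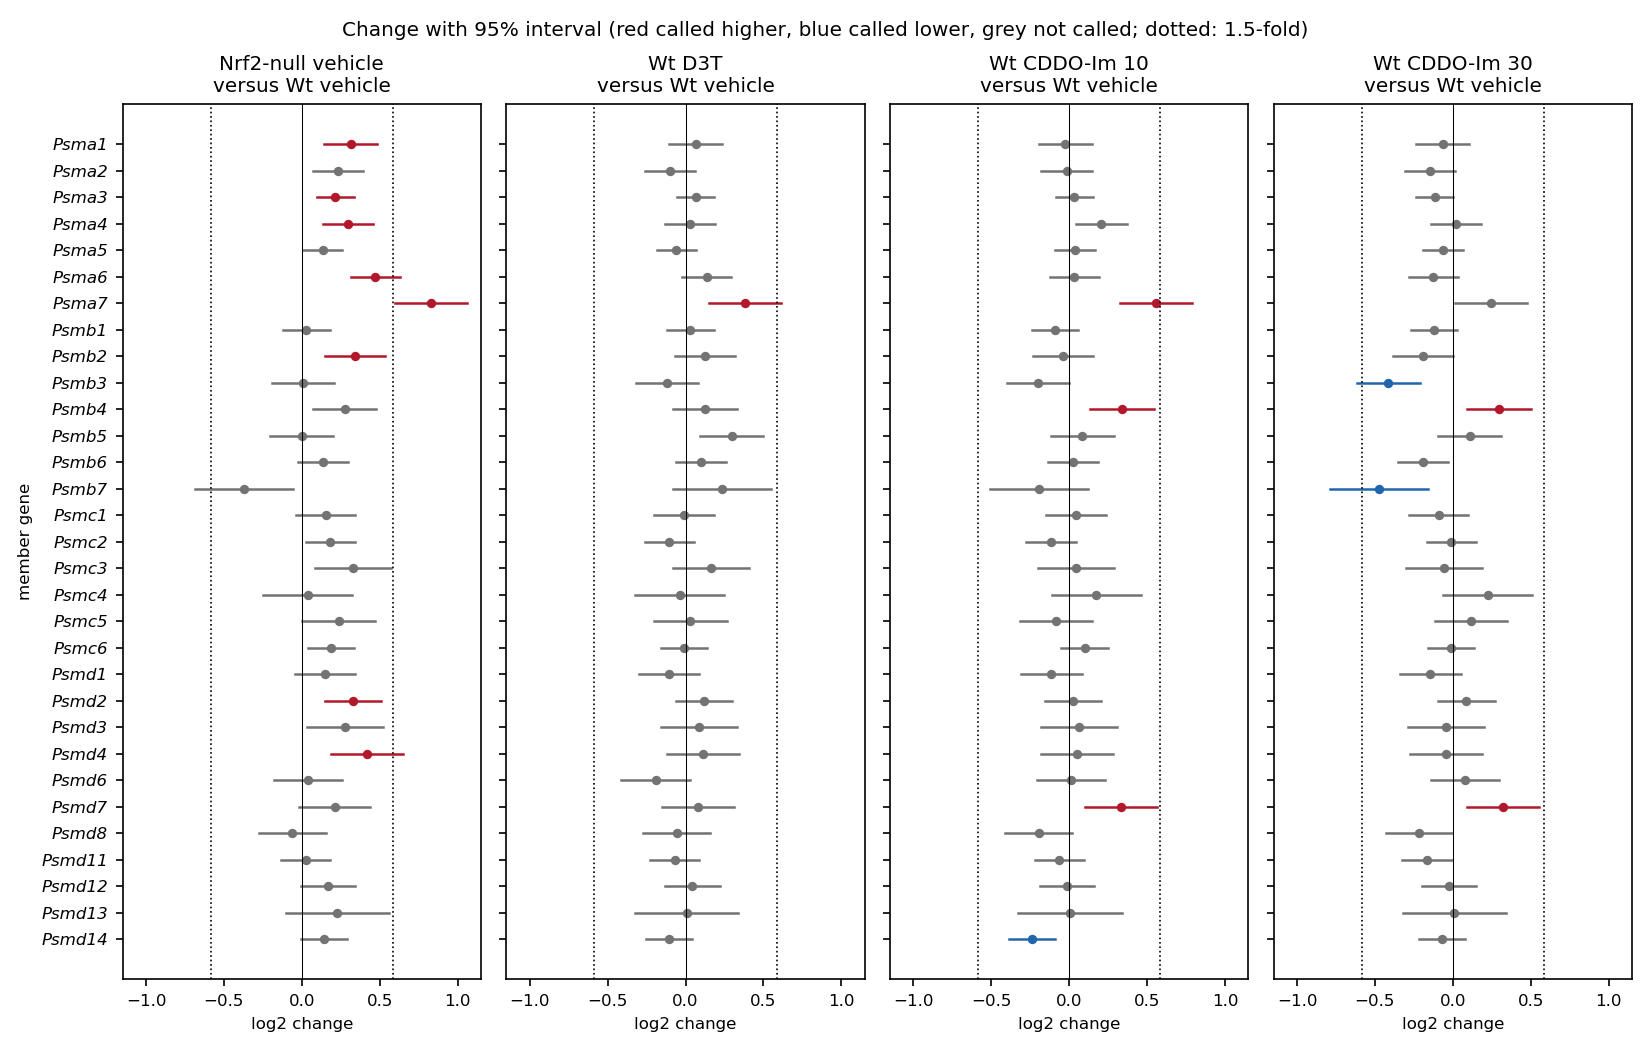
Log2 change of each of the 31 subunits with its 95% interval in 4 comparisons of 4 against 4 mice, red where called higher and blue where called lower, with dotted lines at 1.5-fold (log2 0.585). Nearly all intervals lie between the dotted lines, and the points of the Nrf2-null vehicle panel lie to the right of 0 for 28 of 31.

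Set directly against D3T in Wt liver, 30 μmol/kg CDDO-Im lay lower for 6 of 31 subunits and higher for 0, where 26.2% of all genes were lower and 4.45% higher. The 6 were 2 alpha subunits (Psma3 and Psma6) and 4 beta subunits (Psmb2, Psmb3, Psmb6 and Psmb7). Psmb7 measured 9.31, 9.40, 9.36 and 9.75 with CDDO-Im, against 10.39, 10.03, 10.23 and 10.02 with D3T. The gap was clear, at −0.71 ± 0.16 (adjusted p = 0.00085). Psmb6 measured 11.84, 11.74, 11.74 and 11.87 with CDDO-Im, against 12.14, 11.94, 12.11 and 12.16 with D3T, which did not overlap (−0.29 ± 0.08, adjusted p = 0.0057).

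Centring left Psmb7 alone of these, at −0.52 (adjusted p = 0.014), and 5 others were then higher with CDDO-Im (Psmb4, Psmc2, Psmc4, Psmd6 and Psmd7), where 11.7% of all genes were higher and 10% lower. Psma3 turned to 0.01 (adjusted p = 0.96). Leaving out Wt D3T replicate 3 left 3 called lower, where 22.2% of all genes were. For 10 μmol/kg against D3T only Psmb7 was called, at −0.43 ± 0.16 (adjusted p = 0.049), where 13.8% of all genes were lower and 4.87% higher, and the groups overlapped because 1 of the CDDO-Im mice stood at 10.32. This call was lost in 6 of 8 omissions of 1 mouse and after centring. Between 30 and 10 μmol/kg only Psmb6 was called, at −0.22 ± 0.08 (adjusted p = 0.049), where 14.2% of all genes were lower and 5.25% higher. That call was lost without any 1 of the 8 mice. After centring 0 were called lower and 1 higher, where 7.54% and 10.4% of all genes were. D3T and CDDO-Im differ in dose, and D3T was given at 1 dose only.

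In Nrf2-null liver limma called 0 of 31 subunits with any treatment. The background was also low at 10 μmol/kg CDDO-Im, with 0.0206% of genes higher and 0.0516% lower, and at 30 μmol/kg, with 0.0722% and 0.103%. At 3 μmol/kg it was 0.309% and 0.464%, and with D3T it was 2.27% and 1.83%. With D3T 4 members had an unadjusted p under 0.05, as did 1925 of all 9695 genes. The members' changes with D3T ran from −0.25 ± 0.08 for Psma2 to 0.25 ± 0.10 for Psmb4. With CDDO-Im 3 members had such a p at 3 μmol/kg, 3 at 10 μmol/kg and 10 at 30 μmol/kg. Of all genes 1426, 1246 and 976 did, in that order. After centring 1 was called, Psmb3 at 3 μmol/kg (0.43, adjusted p = 0.045), where 1.08% of all genes were called higher and 0.33% lower, and 0 with D3T (2.53% and 1.98%) or at 10 μmol/kg (0.0928% and 0.0619%).

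Few members separated fully from vehicle. With D3T no member had all treated mice above or all below, where 2.64% and 2.66% of all genes did. With 3 μmol/kg 2 were above and 0 below, where 2.27% and 2.97% of all genes were, and with 10 μmol/kg 1 was above and 1 below, where 2.1% and 1.35% were. All 31 intervals lay within 1.5-fold with D3T, at 3 and at 10 μmol/kg, where 70.8%, 73% and 73.6% of all genes did so.

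The Nrf2-null values at 30 μmol/kg leaned one way without passing. The change was negative for 28 of 31, with a median of −0.14 against 0.01 over all genes. All 7 alpha subunits had an unadjusted p under 0.05, as did 976 of all 9695 genes. In 6 members every treated mouse was below every vehicle mouse, where 2.21% of all genes were so, and in 0 above, where 1.82% were. After centring 0 were called, as were 0.175% of all genes in each direction. The lowest was Psmd1, a large scaffold of the cap's base, at −0.32 ± 0.10 (adjusted p = 0.15), and Psma4 had the smallest adjusted p (−0.29 ± 0.08, adjusted p = 0.12). The 95% intervals of all 31 lay within 1.5-fold, where 75.4% of all genes did so.

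The D3T mice of the Nrf2-null group stood apart from each other. Averaged over the 31 subunits they measured 11.77, 11.89, 11.98 and 12.31, a range larger than that of any other group, and the members' median SD was 0.24 where that of all genes was 0.20. Psmc4, for one, ran from 12.28 to 13.38. The array medians of these 4 were close, at 7.77 to 7.85. Nqo1 measured 3.00, 3.10, 4.14 and 4.72 in the same mice, with Nfe2l2 at 2.79 to 2.87. The highest of the 4, replicate 4, was also low in genes of some other liver cell types. It was the lowest of its group in 5 of 6 Kupffer cell genes, 2 of 3 measured endothelial genes and the leukocyte gene Ptprc, with Marco and Lyve1 the exceptions. It was likewise lowest in 2 of 2 measured stellate cell genes, but in 0 of 2 measured bile duct genes and 1 of 6 hepatocyte genes. The mean log2 level of the Kupffer cell genes was 7.64 in it and 9.12 to 9.58 in the other 3, and lay at 9.19 to 9.90 in Nrf2-null vehicle mice. Clec4f, a Kupffer cell lectin, measured 7.81 in replicate 4 and 9.83 to 10.32 in the other 3, and Stab2, an endothelial scavenger receptor, 7.35 and 9.21 to 9.77. The part of these cells in its subunit levels was not tested. Without this mouse, 5 members were called lower with D3T and 0 higher, where 2.28% of all genes were called lower and 3.95% higher.

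The difference between genotypes in the response was tested directly, as the Wt response minus the Nrf2-null response. For D3T limma called 0 of 31, where 0.0413% of all genes were called higher and 0.0309% lower. An unadjusted p under 0.05 was reached by 5 members and by 1277 of all 9695 genes. Without the same Nrf2-null mouse 2 members were called higher, where 0.289% of all genes were. At 3 μmol/kg CDDO-Im 1 was called lower (Psmb3), where 0.835% of all genes were. At 10 μmol/kg 1 was higher (Psma7) and 1 lower (Psmb3), where 1.7% and 3.7% were. With 30 μmol/kg 2 were higher (Psma7 and Psmb4) and 1 lower (Psmb3), where 1.78% and 10.1% were. After centring 4 were higher and 0 lower at this dose, where 3.29% and 3.07% of all genes were. The difference at 30 μmol/kg was positive for 25 of the 31, with a median of 0.13 against −0.17 over all genes. The medians after centring were 0.29 and −0.01.

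Psma7 responded to 10 μmol/kg with −0.19 ± 0.11 in Nrf2-null liver and 0.56 ± 0.11 in Wt liver, a difference of 0.74 ± 0.16 (adjusted p = 0.0054). The responses to 30 μmol/kg were −0.26 ± 0.11 and 0.25 ± 0.11 in the same order, a difference of 0.51 ± 0.16 (adjusted p = 0.034). The starting levels differed, since Psma7 was already higher in Nrf2-null vehicle mice, and the same vehicle mice enter both the genotype and the response comparisons. At 10 μmol/kg the Nrf2-null mice lay at 11.94 to 12.12 and the Wt mice at 11.88 to 12.04, so the 2 genotypes overlapped after treatment.

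Psmb3 moved apart in the other direction. Nrf2-null mice measured 13.20, 13.07, 13.16 and 13.23 at 3 μmol/kg and 13.23, 13.18, 13.15 and 13.09 at 10 μmol/kg, against 12.84, 12.66, 12.85 and 12.86 with vehicle. Both doses were above vehicle without overlap, by 0.36 each, but did not pass within Nrf2-null liver (adjusted p = 0.075 and 0.13). With the Wt responses of −0.24 ± 0.10 and −0.20 ± 0.10, the differences were −0.60 ± 0.14 at 3 μmol/kg (adjusted p = 0.017) and −0.56 ± 0.14 at 10 μmol/kg (adjusted p = 0.017). The difference with 30 μmol/kg was −0.42 ± 0.14 (adjusted p = 0.043), and it was not called after centring (adjusted p = 0.34). Psmb4 at 30 μmol/kg responded with −0.12 ± 0.10 in Nrf2-null liver and 0.30 ± 0.10 in Wt liver, a difference of 0.41 ± 0.14 at the threshold (adjusted p = 0.0497). Of 16 omissions of 1 mouse, 14 lost this call, 12 that of Psmb3 at 30 μmol/kg and 6 that of Psma7 at 30 μmol/kg, and 0 lost the calls at 3 and 10 μmol/kg.

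Many of these genes carry more than 1 kept probe set, 16 of the 31, and the second did not always follow the first. Over the 16 comparisons there were 31 called changes in 14 genes, 17 higher and 14 lower, of which 21 had another kept probe set to look at. The other probe set was called in the same direction for 4 of these 21 and in the opposite direction for 0. The 4 were Psmb3 at 30 μmol/kg CDDO-Im against vehicle and against D3T, and Psma6 and Psmd4 in Nrf2-null against Wt vehicle. For Psma6 it was a dim probe set (mean 6.10, change 0.39 ± 0.09).

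For Psma7, the member with the largest changes, the other probe set averaged 11.87 over the arrays. In a fit over all kept probe sets its change was 0.33 ± 0.12 in Nrf2-null against Wt vehicle (adjusted p = 0.062), 0.21 ± 0.12 in Wt liver at 10 μmol/kg (adjusted p = 0.21) and 0.06 ± 0.12 with D3T (adjusted p = 0.86). For Psmb4 the probe set used is of the kind that can share probes with other transcripts, and the other bright one changed by −0.08 ± 0.09 at 10 μmol/kg and by −0.21 ± 0.09 at 30 μmol/kg, the opposite sign. The same kind of probe set stands for Psma6, whose other bright one changed by 0.04 ± 0.06 in Nrf2-null against Wt vehicle. In contrast, both probe sets of Psmb3 were lower at 30 μmol/kg, by −0.41 ± 0.10 and −0.39 ± 0.12, and both of Psmd4 were higher in Nrf2-null vehicle mice, by 0.42 ± 0.11 and 0.43 ± 0.13. The other probe set of Psmd7 averaged 4.20, close to the minimum of log2 4.

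**Figure D5:**
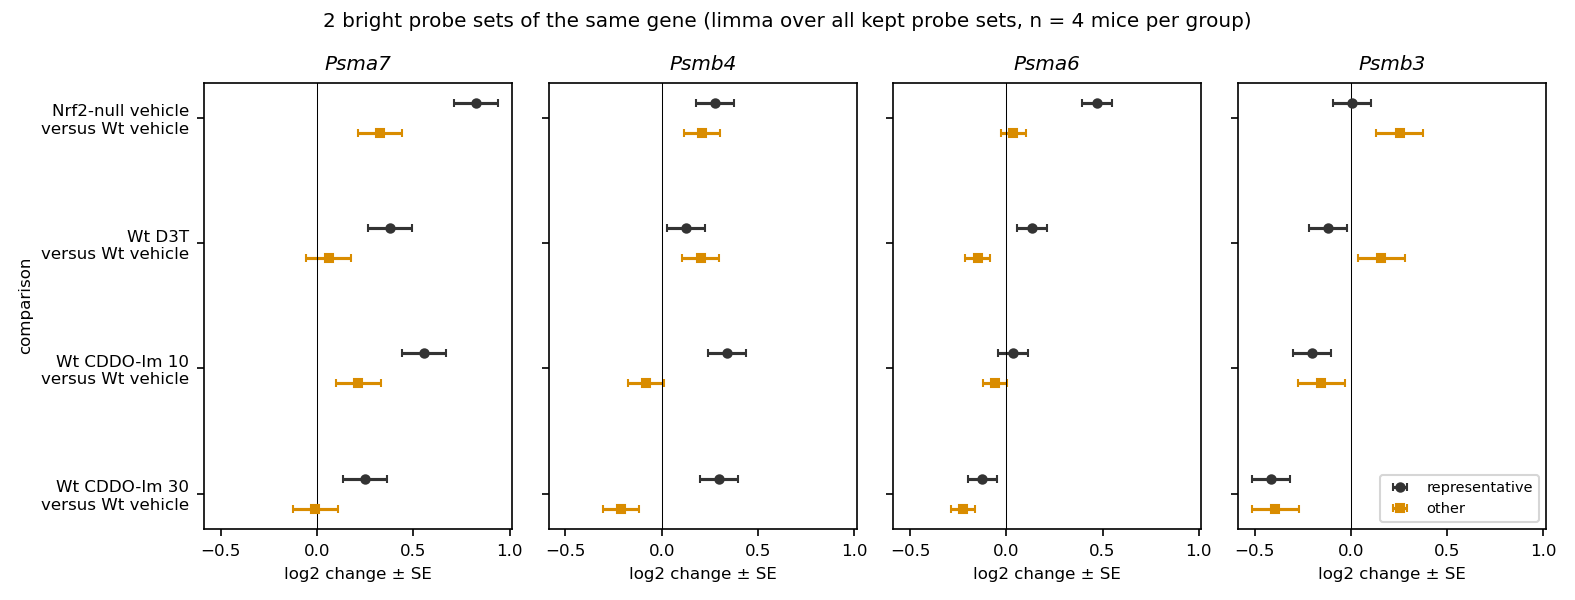
Log2 change ± SE of 2 bright probe sets each for Psma7, Psmb4, Psma6 and Psmb3 in 4 comparisons, circles for the probe set used and squares for the other. The Psmb3 pair coincides at 30 μmol/kg CDDO-Im (−0.41 and −0.39), while the Psma7, Psmb4 and Psma6 pairs lie apart.

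Pooled over the 10 groups, the subunits varied together from mouse to mouse within groups. The mean pairwise correlation of their deviations from the group means was 0.40 over the 40 arrays, against 0.04 for all genes, and 0.48 against 0.01 after centring. It was 0.54 among the ATPases, 0.46 among the other cap proteins, 0.41 among the alpha and 0.33 among the beta subunits. The points share their arrays and overall level, so this is a description only.

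Outside the 31, 24 of 32 listed genes of the same pathway were measured. Against vehicle in Wt liver limma called 0 of 24 with D3T, 3 lower at 10 μmol/kg CDDO-Im, and 4 lower and 1 higher at 30 μmol/kg. With D3T 4 of the 24 had an unadjusted p under 0.05, as did 1803 of all 9695 genes. Of all genes 12.4% were called lower at 10 μmol/kg, and 20.8% lower and 2.81% higher at 30 μmol/kg, so the lower counts were near or below those shares. Assembly chaperones made up 3 of the lower genes at each dose, which build the core or the base and are not in the finished complex. Psmg3 changed by −0.44 ± 0.14 at 10 μmol/kg (adjusted p = 0.029) and by −0.41 ± 0.14 at 30 μmol/kg (adjusted p = 0.037), Psmg1 by −0.22 and −0.24, Psmd5 by −0.25 at 10 μmol/kg, and Psmg4 by −0.38 at 30 μmol/kg. Nfe2l1, the transcription factor of the subunit genes, changed by −0.43 ± 0.12 at 30 μmol/kg (adjusted p = 0.012). The higher gene was Vcp, the segregase that extracts ubiquitinated proteins. It measured 13.29, 13.15, 13.15 and 13.15 at 30 μmol/kg, against 12.82, 13.07, 12.88 and 12.87 with vehicle. The groups did not overlap (0.27 ± 0.08, adjusted p = 0.016). After centring Psmg3 at 10 μmol/kg and Vcp stayed called, and 0 of the 4 lower genes at 30 μmol/kg did, where 9.09% of all genes were called lower at 10 μmol/kg, and 5.61% lower and 6.57% higher at 30 μmol/kg.

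Against D3T, 9 of the 24 were lower at 10 μmol/kg and 10 at 30 μmol/kg, among them 6 of 8 assembly chaperones at each dose and Nfe2l1 (−0.40 ± 0.12 and −0.66 ± 0.12), where 13.8% and 26.2% of all genes were called lower. Those at 30 μmol/kg included the immunoproteasome genes Psmb9 and Psmb10, whose products replace catalytic subunits in immune and inflamed tissue. Psmb10 measured 9.11, 9.26, 9.43 and 9.15 with CDDO-Im, against 10.07, 9.95, 9.98 and 9.91 with D3T. The groups were far apart, at −0.74 ± 0.17 (adjusted p = 0.0015), and the change stayed called after centring (adjusted p = 0.020). After centring 5 and 3 of the lower calls stood at 10 and 30 μmol/kg, where 9.14% and 10% of all genes were called lower. Usp14, a deubiquitinase of the cap, and Vcp were then higher at 30 μmol/kg, where 11.7% of all genes were.

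In Nrf2-null against Wt vehicle, 2 of the 24 were lower and 0 higher, where 4.97% of all genes were called lower and 5.85% higher. Psme1, a subunit of the 11S activator, changed by −0.39 ± 0.10 (adjusted p = 0.010), and Ngly1, the deglycosylase that activates Nfe2l1, by −0.23 ± 0.07 (adjusted p = 0.034). After centring 4 were lower, with the activator subunit Psme4 and the chaperone Psmd5 added, where 8.97% of all genes were. None of the 3 immunoproteasome genes was called there. Within Nrf2-null liver limma called 0 of the 24 with any treatment, and after centring 1, the activator subunit Psme3 with D3T. An unadjusted p under 0.05 was reached by 3 with D3T and by 5, 1 and 0 at 3, 10 and 30 μmol/kg. Of all 9695 genes 1925, 1426, 1246 and 976 reached it, in that order.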

How the data were processed

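Liver RNA of 40 mice was hybridized to Affymetrix mouse genome arrays, 1 per mouse. The deposited values are log2 intensities of 45037 probe sets from the authors' GCRMA run, a method that adjusts background by probe GC content, normalizes quantiles and summarizes each probe set. Quantile normalization forces arrays towards 1 distribution, so a shift shared by most genes would be reduced. Neither the GCRMA version nor which arrays were normalized together was given in the sources used here, and the number of arrays limits precision.

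Symbols came from the platform annotation (34945 probe sets with 1 symbol, 932 with several, 9160 with none listed). A probe set was kept where 3 arrays of 1 group reached log2 4 (18935, of which 16472 had 1 symbol), which stands in for the present calls the study used. A gene was its kept probe set of highest mean, giving 9695 genes. Subunits had 67 probe sets, 55 of them kept.

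All 10 groups, assigned from the sample labels, entered 1 limma 3.58.1 fit (statmod 1.5.0, R 4.3.3) with trend and robust variances, and 16 contrasts were tested, with Benjamini-Hochberg adjustment over genes at 0.05. The fit was tested on simulated data. Alternatives were median centring, repeated quantile normalization, no or a log2 6 minimum, plain variances, arrayWeights, a replicate block, the mean of probe sets, only the compared groups, leaving out each mouse and, chosen after seeing the data, a fit over all kept probe sets. Mice with the same replicate number did not deviate together (correlations −0.22 to 0.37 over 12 comparisons, every pair over 0.1 in 0), so the main fit has no block. Promoters came from RefSeq (GRCm38.p6). The remaining tools were Python 3.11.15, pandas 2.3.3 and Matplotlib 3.10.9. Members and lists were chosen with earlier results of these data known. Values in every mouse are given for Psmb5, Psmb6 and Psmb7, in each class for the 2 smallest and the largest adjusted p in Wt liver at 30 μmol/kg, as values or ranges. Members called in an interaction or lower, extremes of each comparison and called pathway genes are named, and Psma6, Psmd2, Psmd4, Psmd14 and the other members named were added after their values were seen.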

Additional observations from a re-analysis of the deposited data

Results flagged for a closer look

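Among 140 groups of 4 mice (13 subunits and the mean of the 31, in 10 groups each), 10 had a mouse far from the other 3 by Dixon's criterion, where chance gives about 1 in 20. In Wt vehicle mice the highest values of Psmb6 (12.13), Psmc2 (12.99) and the mean of the 31 (11.90) and the lowest of Psmd13 (8.88) stood apart. In Wt mice given CDDO-Im the highest values of Psma3 (13.72) and Psmb7 (9.96) at 3 μmol/kg and of the mean of the 31 (11.98) at 10 μmol/kg did. In Nrf2-null mice the lowest Psmb3 value stood apart with vehicle (12.66) and with 30 μmol/kg (12.61), and at that dose so did the highest Psmb7 value (9.74).

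The response differed between genotypes by limma's interaction for 3 subunits. The Wt response minus the Nrf2-null response was −0.60 for Psmb3 at 3 μmol/kg CDDO-Im, −0.56 for Psmb3 and 0.74 for Psma7 at 10 μmol/kg, and −0.42 for Psmb3, 0.51 for Psma7 and 0.41 for Psmb4 at 30 μmol/kg. The adjusted p-values were 0.017, 0.017, 0.0054, 0.043, 0.034 and 0.0497 in that order.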

How the results depend on the processing

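Of the 31 called changes, the 10 alternatives of processing lost between 0 and 16 each, and 1 turned its sign. Psma7 in Wt liver at 10 μmol/kg, Psma6 and Psma7 in Nrf2-null against Wt vehicle, and Psmb7 at 30 μmol/kg CDDO-Im against D3T were called under all 18 alternatives run for them. Centring lost 16 and turned Psma3 at 30 μmol/kg against D3T to 0.0061. The mean of probe sets lost 15, of which 6 had no other probe set of the same sign and 9 had at least 1. The cause was not tested.

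Counts of subunits that moved by over 1.5 times were these, for Wt liver unless stated, and limma gave every 0. Shares of all genes with centring are given above, apart from 7.36% called higher at 10 μmol/kg against D3T. For the other alternatives such shares are not given, so their counts describe the processing and are no result about the subunits. With centring, calls higher were 0 with D3T, 3 in Nrf2-null against Wt vehicle, 1 at 3 μmol/kg CDDO-Im in Nrf2-null liver, 1 at 10 and 5 at 30 μmol/kg against D3T, 1 at 30 against 10 μmol/kg and 4 in the response difference at 30 μmol/kg. Calls lower were 0 at 10 and at 30 μmol/kg against vehicle, 0 at 10 and 1 at 30 μmol/kg against D3T, 0 at 30 against 10 μmol/kg and 0 in the response difference at 30 μmol/kg. With repeated quantile normalization, calls higher were 0 with D3T, 1 at 10 and 2 at 30 μmol/kg against D3T and 1 at 30 against 10 μmol/kg, and calls lower were 1 at 30 μmol/kg against vehicle, 0 at 10 and 3 at 30 μmol/kg against D3T, 0 at 30 against 10 μmol/kg and 0 in the response difference at 30 μmol/kg.

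With no minimum, calls higher were 0 with D3T, at 30 μmol/kg and in the response difference at 30 μmol/kg, and calls lower were 0 at 10 μmol/kg against D3T, at 30 against 10 μmol/kg and in the response difference at 30 μmol/kg. With a minimum of log2 6, 1 was higher at 30 μmol/kg against D3T and 2 were lower at 30 against 10 μmol/kg. With plain variances, 0 were higher with D3T and 1 in the response difference at 30 μmol/kg, and 0 were lower at 10 μmol/kg against D3T, at 30 against 10 μmol/kg and in the response difference at 30 μmol/kg. With the mean of probe sets, calls higher were 0 with D3T, 1 at 10 and 0 at 30 μmol/kg against vehicle, 1 at 10 μmol/kg against D3T and 0 in the response differences at 10 and 30 μmol/kg, and calls lower were 0 in the response differences at 3, 10 and 30 μmol/kg. With the fit over all kept probe sets, 0 were higher with D3T, 1 was higher in the response difference at 30 μmol/kg and 0 were lower at 30 against 10 μmol/kg. With only the compared groups, 2 were higher with D3T, 3 in Nrf2-null against Wt vehicle and 2 at 30 μmol/kg against D3T, and 0 were lower at 10 μmol/kg against D3T and 2 at 30 against 10 μmol/kg. With the replicate block, 1 was higher at 30 μmol/kg and 0 were lower at 10 μmol/kg, both against D3T, and 2 of the 31 calls were lost.

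With arrayWeights, 64 changes of subunits were called in all. Whether calls over all genes rose as much is not given, so this total is no result about the subunits. Calls higher were 2 with D3T, 1 at 3 μmol/kg, 1 at 3 and 2 at 10 μmol/kg in Nrf2-null liver, 1 at 10 and 1 at 30 μmol/kg against D3T, 1 at 30 against 10 μmol/kg, and 2, 1, 2 and 4 in the response differences with D3T and at 3, 10 and 30 μmol/kg. Calls lower were 1 at 3, 2 at 10 and 6 at 30 μmol/kg, 3 at 30 against 10 μmol/kg, 2 with D3T in Nrf2-null liver, 1 in Nrf2-null against Wt vehicle, and 2 and 2 in the response differences at 10 and 30 μmol/kg.

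Leaving out each mouse gave these ranges, with shares of all genes only for the omissions where they are given above. Calls higher were 0 to 1 with D3T, 1 to 4 at 10 and 0 to 2 at 30 μmol/kg, 5 to 9 in Nrf2-null against Wt vehicle, and 0 to 1 at 30 μmol/kg against D3T. They were 0 to 1 in Nrf2-null liver with D3T and at 3 and 10 μmol/kg, 0 to 2 in the response differences with D3T and at 30 μmol/kg and 1 to 2 at 10 μmol/kg. Calls lower were 0 to 1 at 10 and 1 to 2 at 30 μmol/kg, 0 to 1 at 10 and 3 to 6 at 30 μmol/kg against D3T, and 0 to 2 at 30 against 10 μmol/kg. They were 0 to 5 with D3T and 0 to 1 at 30 μmol/kg in Nrf2-null liver, and 1 to 2 at 10 and 0 to 1 at 30 μmol/kg in the response differences. Psmb6 at 30 against 10 μmol/kg was lost without any 1 of the 8 mice. The lowest count in Nrf2-null against Wt vehicle, 5, came without Nrf2-null replicate 3. The lowest counts of higher calls at 10 μmol/kg (1) and at 30 μmol/kg (0) each came without Wt vehicle replicate 2 or 3, and also without CDDO-Im replicate 4 at 10 μmol/kg and replicate 3 at 30 μmol/kg, and the lowest of lower calls at 30 μmol/kg against D3T (3) without Wt D3T replicate 3.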
